A study of Drosophila melanogaster with 6 samples.

Results

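The mitochondrial ribosomal proteins are encoded in the nucleus, made in the cytosol and imported into mitochondria, where they join the ribosomal RNAs of the mitochondrial genome. The resulting ribosome has a large subunit, in which peptide bonds form, and a small subunit, which reads the messenger RNA. It translates the few proteins that the mitochondrial genome encodes, all of them subunits of the respiratory complexes and the ATP synthase, so that respiratory assembly draws on both genomes. Muscle is rich in mitochondria, and mitochondrial translation is needed for its respiration. The genes described here are all rows of the count table whose symbol begins with mRpL (large subunit) or mRpS (small subunit). There were 72 of them among 11621 genes, 46 for the large and 26 for the small subunit, and all 72 had enough counts to be tested. mRpL45 was not analysed here, and mRpS12 and mRpS15 carry the older symbols tko and bonsai, so that the rule does not take them.

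RNA was sequenced from larval cuticles with the attached body wall muscles of Drosophila melanogaster. The 3 control samples came from tumour-free w1118 larvae at 7 days after egg laying. The 3 tumour-bearing samples came from larvae at 10 days, which carried y,w,ey-flp, the pair act5C>y+>GFP over UAS-RasV12, and the chromosome FRT82B,tub-gal80 opposite FRT82B,scrib1. In these larvae the eyeless promoter drives the recombinase, so that GFP-marked clones without scrib function and with active Ras arise in the eye-antennal discs, and the sequenced body wall is host tissue. The question is how the transcripts of the wasting body wall differ from those of a tumour-free animal. Age, genetic background and tumour cannot be told apart in this design, nor can sequencing lane, which is labelled differently for every sample. The labels give a rearing temperature of 25 degrees for the controls. The study's methods describe a shift from a lower to a higher temperature for larvae of the tumour genotype and do not say whether the sequenced larvae were shifted, so temperature may also differ between the groups and cannot be told apart from the tumour. The series text gives 40 cuticles per sample, and the study's methods give a smaller number. No source says whether replicates were grown separately, and the p-values therefore reflect how far these libraries scatter, a scatter that could be technical.

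Depth was 62617114 to 84149121 counts per sample, and a member had between 80 and 9360 raw counts in a sample (median 602). The 20 most abundant genes held 25.9 to 35.9% of the control counts and 10.8 to 11.6% of the tumour-bearing counts. The labelled tissue was present in every sample, with Act57B, a muscle actin, at a mean of 2735000 normalized counts in controls and 393500 in tumour-bearing samples. Of 15 muscle markers 10 fell, and of 11 epidermal and cuticle markers 8 fell, while 5 of 8 haemocyte markers rose and 1 fell. The haemocyte markers had summed normalized counts of 39345 to 116460 in controls and 95455 to 269650 in tumour-bearing samples. By the test used below, 23.8% of genes went up and 23% went down. Of 7 fat body markers 1 fell, of 5 neuron markers 2 rose, and of 6 eye-antennal disc markers 1 rose and 1 fell. Summed normalized counts of the fat body markers were 3350.4, 9086.5 and 17540 in control replicates 1, 2 and 3. They were 14927, 1758.1 and 2349.6 in tumour-bearing replicates 1, 2 and 3. What sets this spread was not tested. In bulk tissue, fewer cells of a type and less RNA per cell cannot be told apart. Because of this change in composition, the way libraries are scaled decides what counts as unchanged. Libraries were scaled by TMM (trimmed mean of M values), which sets the bulk of genes level, and with it the typical gene tested had a log2 fold change of 0.0067 (median). Scaling to total counts moved that median to 0.94, so every change below is relative to the typical gene of the same libraries.

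Most mitochondrial ribosomal protein genes moved little relative to the typical gene. By edgeR's quasi-likelihood test with Benjamini-Hochberg adjustment over 10074 genes and a threshold of 0.05, 7 of the 72 members were higher in tumour-bearing samples and 4 were lower. Among all genes tested, 23.8% were higher and 23% lower. Members past the test in either direction made up 15.3% of the family, against 46.8% of all genes. The median log2 fold change of the members was 0.085, their middle 50% lay between -0.17 and 0.24, and the extremes were -0.93 and 1.14. For all genes tested the quartiles were -0.60 and 0.66. The normalized counts of the groups did not overlap for 25 of the 72 members, 16 of them higher and 9 lower in tumour-bearing samples, against 61.6% of all genes tested. A member that missed the threshold is not thereby shown to be unchanged, and the standard error of a log2 fold change reached 0.32 (mRpL27).

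**Figure D1:**
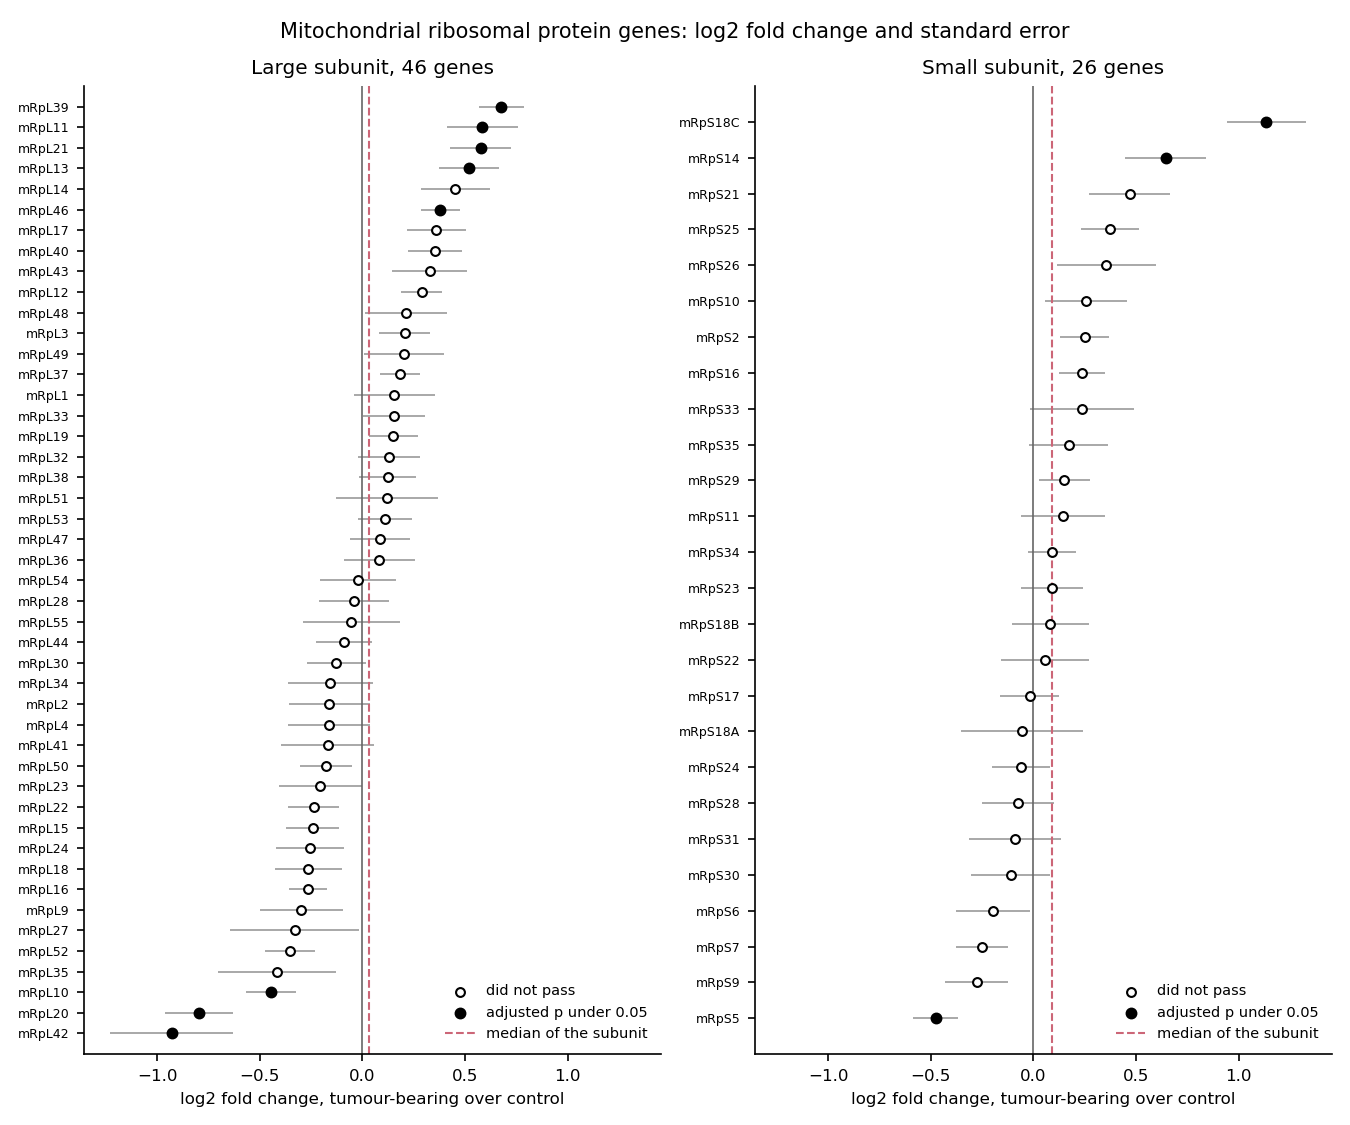
Log2 fold change of tumour-bearing over control samples (x axis) for each gene (y axis) of the large subunit (left) and the small subunit (right), with standard error bars from 3 samples per group. Filled points passed the test (adjusted p under 0.05), and the dashed lines mark the subunit medians of 0.029 and 0.091. Most members lie close to 0, and mRpS18C stands furthest out at 1.14.

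The 72 genes together summed to 61942, 75704 and 57779 normalized counts in control replicates 1, 2 and 3, and to 64611, 61136 and 62683 in the tumour-bearing replicates. The tumour-bearing values lay inside the control range, with means of 65142 ± 9381 and 62810 ± 1741 (SD, n = 3 each). Controls therefore varied more among themselves than the group means differed. Control replicate 2 had the highest value of the controls for 63 of the 72 members, and control replicate 3 the lowest for 46. This order was not particular to the members. Summed normalized counts in control replicates 1, 2 and 3 were 8956400, 14280000 and 3731600 for the muscle markers. They were 16881000, 18186000 and 10912000 for the epidermal and cuticle markers, and 107510000, 121030000 and 90781000 over all genes. The fat body markers, eye-antennal disc markers and mitochondrial DNA replication genes had other orders. What sets the spread of the members was not tested. The coefficient of variation of a member had a median of 14.8% in controls and 6.70% in tumour-bearing samples, and over all genes tested these medians were 19.2% and 11.6%.

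The subunits differed little from each other. In the large subunit 5 of 46 genes rose, 3 fell and 38 did not pass, with a median log2 fold change of 0.029. In the small subunit 2 of 26 rose, 1 fell and 23 did not pass, with a median of 0.091. The difference of the medians was -0.062, and it was -0.15 when mRpS18A and mRpS30, whose mammalian counterparts sit in the large subunit, were counted there. Raw counts within a library compare the subunits with no scaling at all. The summed counts of the large subunit over those of the small subunit came to 1.20, 1.24 and 1.23 in the controls and 1.36, 1.27 and 1.34 in the tumour-bearing samples. These groups did not overlap, and the mean was 1.23 ± 0.021 in controls and 1.32 ± 0.047 in tumour-bearing samples (SD, n = 3 each). With mRpS18A and mRpS30 counted in the large subunit the ratio was 1.37, 1.43 and 1.37 in controls and 1.55, 1.42 and 1.52 in tumour-bearing samples, and the groups overlapped. With 3 samples per group, the smallest p of a two-sided exact permutation test is 0.10, so that ratios are given as values.

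The ratio also depended on mRpS5. Its product is the counterpart of bacterial S5, which lines the path of the messenger RNA into the small subunit, and it was the most abundant member. mRpS5 gave 9095, 9811 and 9235 normalized counts in controls and 6589, 7376 and 6263 in tumour-bearing samples, without overlap. Its log2 fold change was -0.48 ± 0.11 (adjusted p = 0.016, edgeR quasi-likelihood). With mRpS5 left out of the sums, a choice made after seeing the data, the large over small ratio was 1.78, 1.75 and 1.91 in controls and 1.79, 1.75 and 1.74 in tumour-bearing samples. The groups then overlapped, and the mean was 1.81 in controls and 1.76 in tumour-bearing samples.

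The largest change in the family was that of mRpS18C (chromosome 3R, bases 30423974 to 30424556, plus strand, BDGP6). Drosophila, like mammals, has 3 genes related to the bacterial small subunit protein S18, and in mammals MRPS18C is the counterpart that takes the place of bacterial S18. mRpS18C had 131, 128 and 155 normalized counts in controls and 310.4, 324 and 277 in tumour-bearing samples. Every tumour-bearing value was above every control value, and the log2 fold change was 1.14 ± 0.19 (adjusted p = 0.0056). Its relatives did not pass the test. mRpS18A was at -0.054 ± 0.30 (adjusted p = 0.89) and mRpS18B at 0.083 ± 0.19 (adjusted p = 0.74). Within a library, counts of mRpS18C over those of mRpS18B were 0.316, 0.240 and 0.421 in controls and 0.709, 0.758 and 0.523 in tumour-bearing samples. The groups were apart, but this ratio uses the same counts and adds no separate support. Of the mRpS18C exon bases, 11.0% lie under exons of CG15536 on the opposite strand, and the library kit does not mark strand. CG15536 itself was at 0.82 ± 0.28 (adjusted p = 0.054), and its part in the mRpS18C counts was not tested.

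mRpL39 rose with the smallest error relative to its change. It encodes a large subunit protein particular to mitochondria and lies on 3L, bases 14997981 to 14999666 on the minus strand. Its normalized counts were 684, 752 and 806 in controls and 1194, 1112 and 1280 in tumour-bearing samples. The groups were well apart, with a log2 fold change of 0.68 ± 0.11 (adjusted p = 0.0050). mRpL46, which in mammals forms part of the central protuberance of the large subunit, was nearly constant among controls at 870.3, 849.5 and 854 normalized counts. It reached 1183, 1038 and 1128 in tumour-bearing samples, a log2 fold change of 0.38 ± 0.094 (adjusted p = 0.020).

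mRpS14, a protein of the small subunit head, lies on X, bases 19479382 to 19480238. It had 455, 458 and 331 normalized counts in controls and 780.0, 593 and 572 in tumour-bearing samples. It was higher in all 3 tumour-bearing samples than in any control (log2 fold change 0.64 ± 0.20, adjusted p = 0.040). On the opposite strand, exons of Nat1, an N-terminal acetyltransferase subunit, cover 32.0% of its exon bases. Nat1 was far more abundant and rose as well, by 0.69 ± 0.14 (adjusted p = 0.011), so that reads of the pair cannot be told apart where they overlap. CG32533, on the same strand as mRpS14, shares 3.8% of the mRpS14 exon bases and rose by 0.84 ± 0.086 (adjusted p = 0.0013). The mRpS14 call was lost in each of the 6 fits that left out 1 sample (adjusted p = 0.061 to 0.12), with log2 fold changes of 0.48 to 0.73.

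The other members that rose encode counterparts of bacterial large subunit proteins. mRpL21 had 394, 357 and 326 normalized counts in controls and 559, 470.3 and 575 in tumour-bearing samples. The groups did not overlap (log2 fold change 0.58 ± 0.15, adjusted p = 0.023). mRpL21 also had the lowest level of all members per length, 263 normalized counts per kb of exon. mRpL13 was at 394, 433 and 332 in controls and 573, 553 and 534 in tumour-bearing samples (log2 fold change 0.52 ± 0.14, adjusted p = 0.029). mRpL13 shares 35.2% of its exon bases with CG10602 on the same strand, which moved the other way, at -0.89 ± 0.15 (adjusted p = 0.0050). CG10602 was far more abundant, with means of 19180 normalized counts in controls and 10320 in tumour-bearing samples. Its part in the mRpL13 counts was not tested.

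The stalk of the large subunit, the flexible arm that recruits translation factors, held members moving in opposite directions relative to the typical gene. mRpL11, whose bacterial counterpart forms the stalk base, had 615, 532 and 694 normalized counts in controls and 952, 1061 and 748 in tumour-bearing samples (log2 fold change 0.58 ± 0.17, adjusted p = 0.036). mRpL10, which anchors the stalk, had 978, 1162 and 957 in controls and 804, 696 and 772 in tumour-bearing samples (log2 fold change -0.45 ± 0.12, adjusted p = 0.027). The groups did not overlap for either gene. Scaled to total counts both were higher, mRpL10 at 0.50 and mRpL11 at 1.49 (adjusted p = 0.019 and 0.0018). With 1 sample left out, mRpL10 passed in 1 of 6 fits and mRpL11 in 2. On the opposite strand, CG8461 covers 7.2% of the mRpL11 exon bases and was at 0.76 ± 0.14 (adjusted p = 0.0067). CG11617 covers 4.4% of those of mRpL10 and was at -0.026 ± 0.56 (adjusted p = 0.97). Their part in the counts was not tested. mRpL12, the protein that mRpL10 holds and that contacts the factors, was at 655, 731 and 666 in controls and 866, 809 and 831 in tumour-bearing samples. These values were apart too, but the change of 0.29 ± 0.099 missed the threshold (adjusted p = 0.056). It passed with DESeq2 (adjusted p = 0.039), and over all alternatives its adjusted p ran from 6.0e-04 to 0.17. The ratio of mRpL12 to mRpL10 counts within a library, which no scaling touches, was 0.670, 0.629 and 0.696 in controls and 1.08, 1.16 and 1.08 in tumour-bearing samples. For mRpL11 over mRpL10 it was 0.629, 0.458 and 0.725 in controls and 1.18, 1.52 and 0.969 in tumour-bearing samples. Both ratios were higher in all 3 tumour-bearing samples. This follows from the values above, where the groups were apart in opposite directions, so the ratios add no separate support.

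Besides mRpL10 and mRpS5, the members that fell were mRpL20 and mRpL42. mRpL20, on 3L from 13017149 to 13017867, is the counterpart of a bacterial protein needed early in large subunit assembly. Its normalized counts were 534, 742 and 613 in controls and 392, 333 and 362 in tumour-bearing samples. The groups were apart, and the log2 fold change was -0.80 ± 0.17 (adjusted p = 0.011). mRpL42, particular to mitochondria and found on 2R from 10066650 to 10067242, had 1162, 1576 and 707 in controls and 653, 517 and 635 in tumour-bearing samples. Its controls spread widely, and the lowest of them was close to the highest tumour-bearing value (log2 fold change -0.93 ± 0.30, adjusted p = 0.046). These 4 falls are relative to the typical gene: scaled to total counts, mRpL10 and mRpS5 were higher in tumour-bearing samples (0.50 and 0.46, adjusted p = 0.019 and 0.027), and mRpL20 and mRpL42 did not pass (0.15 and 0.059, adjusted p = 0.51 and 0.83).

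**Figure D2:**
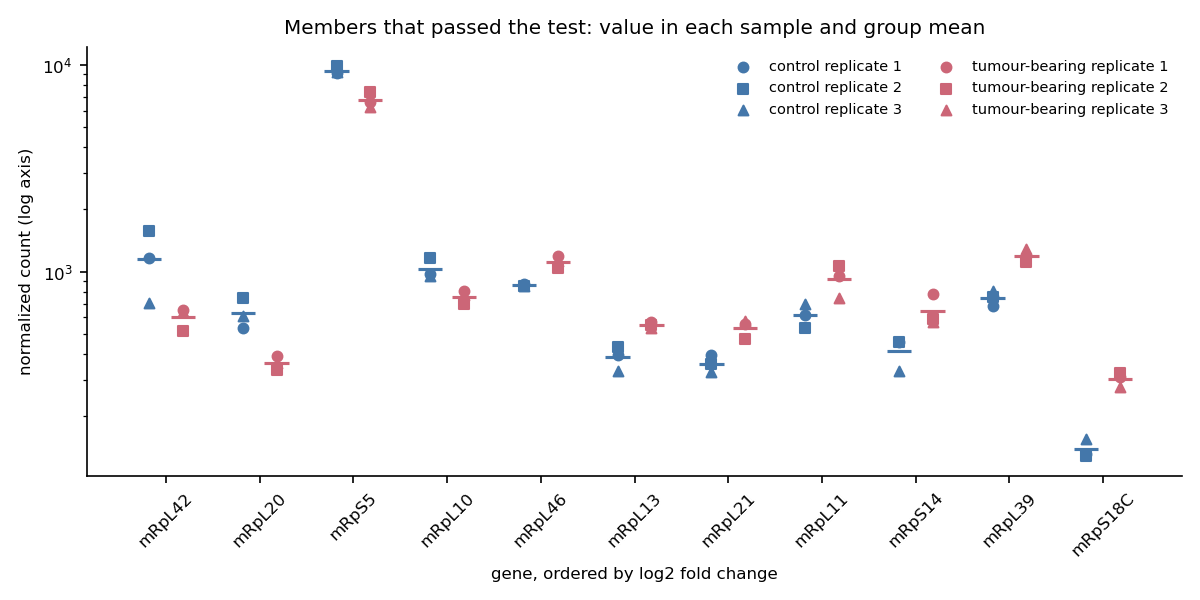
Normalized counts (y axis, log scale) in each of the 6 samples for the 11 members that passed the test (x axis, ordered by log2 fold change), with a bar at each group mean and a symbol for each replicate. The groups do not overlap for any of the 11 genes, and mRpL42 has the widest spread of controls, from 707 to 1576.

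Each sample was also left out in turn. This lowered the calls among all genes tested from 46.8% to between 29.8 and 34.2% without control replicate 1 or any tumour-bearing replicate, to 42.8% without control replicate 2, and gave 49.9% without control replicate 3. In the fits that lost their call, mRpL13 had a log2 fold change of 0.40 to 0.54 (0.52 with all samples) and mRpL10 of -0.50 to -0.36 (-0.45 with all samples). mRpS18C, mRpL39 and mRpL20 passed in all 6 such fits, with adjusted p values of at most 0.030, 0.024 and 0.049. mRpS5 lost its call without tumour-bearing replicate 1 or 3 (adjusted p = 0.060 and 0.062), and mRpL46 without those or control replicate 1 (0.059 to 0.069). mRpL11 passed without control replicate 3 or tumour-bearing replicate 3, and mRpL21 without control replicate 1 or tumour-bearing replicate 2, each losing its call in the other 4 fits (0.077 to 0.12 and 0.055 to 0.078). mRpL10 and mRpL42 passed without control replicate 3 alone (0.055 to 0.10 and 0.097 to 0.14 otherwise), and mRpL13 without control replicate 2 alone (0.054 to 0.090 otherwise). mRpS9, which fell short with all samples, passed without control replicate 3 (log2 fold change -0.43, adjusted p = 0.015). When libraries were scaled to the 72 members alone, so that each gene was read against its own family, mRpS18C, mRpL39, mRpS14 and mRpL13 were higher, and mRpL42, mRpL20, mRpS5, mRpL10 and mRpL52 were lower. That scaling was chosen after seeing the data, and with it 19% of all genes tested were higher and 21.2% lower.

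Levels can be compared between members per exon length. The mean normalized count per kb over the 6 samples ran from 263 for mRpL21 to 4793 for mRpS5, with a median of 766. The most abundant after mRpS5 were mRpL28, mRpL53 and mRpS9. mRpL28, counterpart of a bacterial large subunit protein, had 3348 per kb and showed a log2 fold change of -0.042 ± 0.17 (adjusted p = 0.86). mRpS9, whose bacterial counterpart reaches the transfer RNA from the head, had 2550 per kb and a change of -0.28 ± 0.15 (adjusted p = 0.18). Exons of ArgRS-m on the opposite strand cover 25.1% of the mRpS9 exon bases, and their part in its counts was not tested. mRpS22, a small subunit protein particular to mitochondria, had 1623 per kb and a change of 0.055 ± 0.22 (adjusted p = 0.85), and mRpL9 had 1492 per kb and a change of -0.30 ± 0.20 (adjusted p = 0.26). None of these 4 passed the test. mRpL53 stood at 2959 per kb, with a change of 0.11 ± 0.13 (adjusted p = 0.52), but its exons lie wholly within CG33155 on the same strand, whose normalized counts of 2320, 2978 and 2803 in controls ran close to the 2019, 2627 and 2435 of mRpL53. Its level is therefore uncertain. Across the 72 members, level per kb and log2 fold change had a Spearman rho of -0.26, and exon length and log2 fold change one of -0.037, given as a description over genes that share the same 6 libraries.

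**Figure D3:**
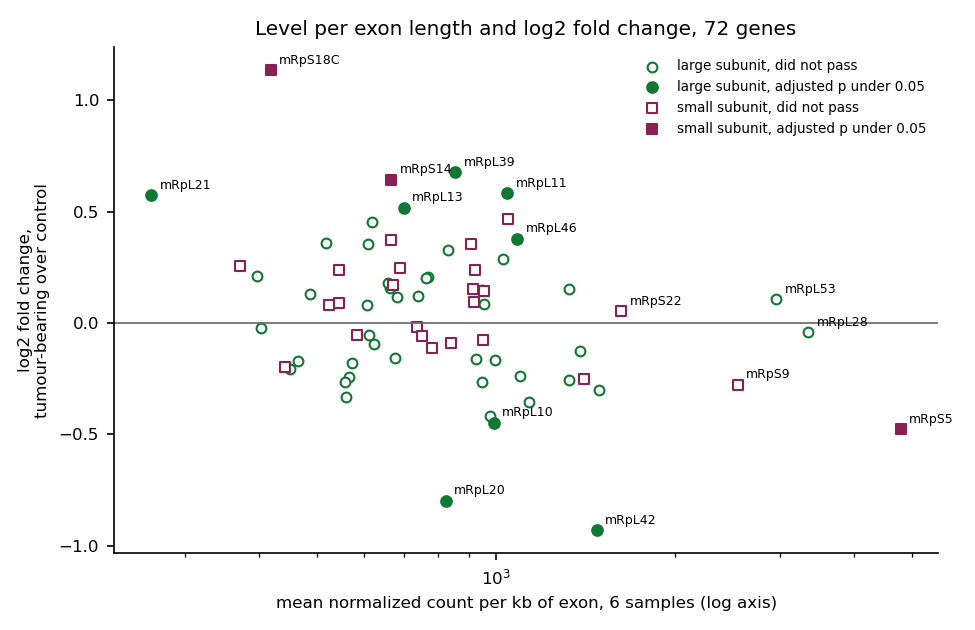
Mean normalized count per kb of exon over the 6 samples (x axis, log scale) against log2 fold change of tumour-bearing over control (y axis) for the 72 members, with circles for the large and squares for the small subunit and filled symbols for genes past the test. mRpS5 is the most abundant at 4793 per kb and lies below 0, and mRpS18C, at 418 per kb, has the largest rise.

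The members were also grouped by descent and by place in the ribosome, with no test between groups. Of 45 members with a bacterial counterpart, 5 rose and 3 fell (median log2 fold change -0.042), and of 26 particular to mitochondria, 2 rose and 1 fell (median 0.12). mRpL55 was put in neither class. With total counts these medians were 0.93 and 1.07, so the sign of the bacterial counterpart median depends on the scaling. By place, the medians ran from -0.20 at the tunnel exit to 0.29 in the stalk. At the exit of the peptide tunnel, none of 5 members passed (median -0.20), among them mRpL23, which lines the exit, at -0.20 ± 0.20 (adjusted p = 0.43). In the central protuberance mRpL46 rose and the other 4 did not pass (median 0.21). In the head of the small subunit mRpS14 rose and 8 did not pass (median 0.15), and mRpS29, the GTP-binding protein known in mammals as DAP3, was at 0.15 ± 0.12 (adjusted p = 0.35). The 72 genes lie on all major chromosome arms, with 11 on X, 12 on 2L, 12 on 2R, 17 on 3L and 20 on 3R, and the medians by arm ran from -0.049 on 2R to 0.15 on X. Outside the rule, tko and bonsai were at 0.28 ± 0.15 (adjusted p = 0.18) and -0.31 ± 0.13 (adjusted p = 0.11).

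Genes that act with the mitochondrial ribosome showed similarly small medians. Of 15 mitochondrial tRNA synthetases, which charge the transfer RNAs, none rose and 2 fell (median 0.034), namely PheRS-m at -0.70 ± 0.17 (adjusted p = 0.018) and CysRS-m at -0.58 ± 0.12 (adjusted p = 0.011). The summed counts of the members over those of the synthetases stayed between 4.07 and 4.32 in controls and 4.23 and 4.41 in tumour-bearing samples. Of 9 mitochondrial translation factors 1 rose and 2 fell (median 0.12). The elongation factor mEFG1, listed as ico, was higher by 0.94 ± 0.24 (adjusted p = 0.022). The initiation factor mIF3 was at -0.87 ± 0.12 (adjusted p = 0.0033) and the recycling factor mRRF1 at -0.66 ± 0.16 (adjusted p = 0.017). The mEFG1 call was lost without control replicate 1 or any tumour-bearing replicate (adjusted p = 0.061 to 0.080), that of PheRS-m without any tumour-bearing replicate (0.051 to 0.073), and that of mRRF1 without tumour-bearing replicate 2 or 3 (0.068 and 0.057). Scaled to total counts, PheRS-m, CysRS-m, mIF3 and mRRF1 were above 0 and did not pass the test.

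Some genes of mitochondrial transcription and DNA replication moved further. mtRNApol, the mitochondrial RNA polymerase, had 686, 736 and 507 normalized counts in controls and 2892, 3613 and 3248 in tumour-bearing samples. That was a rise of 2.34 ± 0.18 on the log2 scale (adjusted p = 7.2e-04), larger than that of any ribosomal protein of the family. bsf, which binds mitochondrial RNA, rose by 1.01 ± 0.17 (adjusted p = 0.0053). mtTFB2, a transcription factor of the polymerase, was at -0.61 ± 0.16 (adjusted p = 0.023), and the termination factor mTTF at -0.58 ± 0.13 (adjusted p = 0.014). The remaining 7 of the 11 genes of this list did not pass (median of the list 0.023), and with total counts mTTF passed as higher (0.37, adjusted p = 0.041) and mtTFB2 was at 0.32 and did not pass (adjusted p = 0.22). The mtTFB2 call was lost without control replicate 2 or any tumour-bearing replicate (adjusted p = 0.052 to 0.081), and that of mTTF without tumour-bearing replicate 2 or 3 (0.057 and 0.051). Of 4 replication genes 3 rose (median 0.81), with the helicase (mtDNA-helicase, listed as CG5924) at 2.44 ± 0.17 (adjusted p = 5.6e-04) and the polymerase subunit tam at 1.06 ± 0.17 (adjusted p = 0.0045). mtSSB, the single-stranded DNA binding protein, rose by 0.56 ± 0.18 (adjusted p = 0.043). That call is close to the threshold, and whether it holds with a sample left out is not given here.

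The respiratory genes fell much further relative to the typical gene than the genes of the mitochondrial ribosomal proteins did. Of 65 nuclear-encoded respiratory complex subunits tested, 56 fell and none rose (median -1.59), with the ATP synthase subunits Oscp at -2.75 ± 0.24 (adjusted p = 8.8e-04) and ATPsynG (its current symbol) at -2.37 ± 0.43 (adjusted p = 0.0072). Of 13 mitochondrially encoded genes, the ones the ribosome translates, 11 fell and none rose (median -1.73), with ND3 at -2.91 ± 0.38 (adjusted p = 0.0026) and ND4 at -2.38 ± 0.30 (adjusted p = 0.0022). Scaling to total counts left 21 of the nuclear subunits lower and 3 higher (median -0.59), and 10 of the mitochondrially encoded genes lower and none higher (median -0.76). Under that scaling 69 of the 72 members were higher and none lower (median 1.04), where 61.5% of all genes tested were higher and 6.9% lower.

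**Figure D4:**
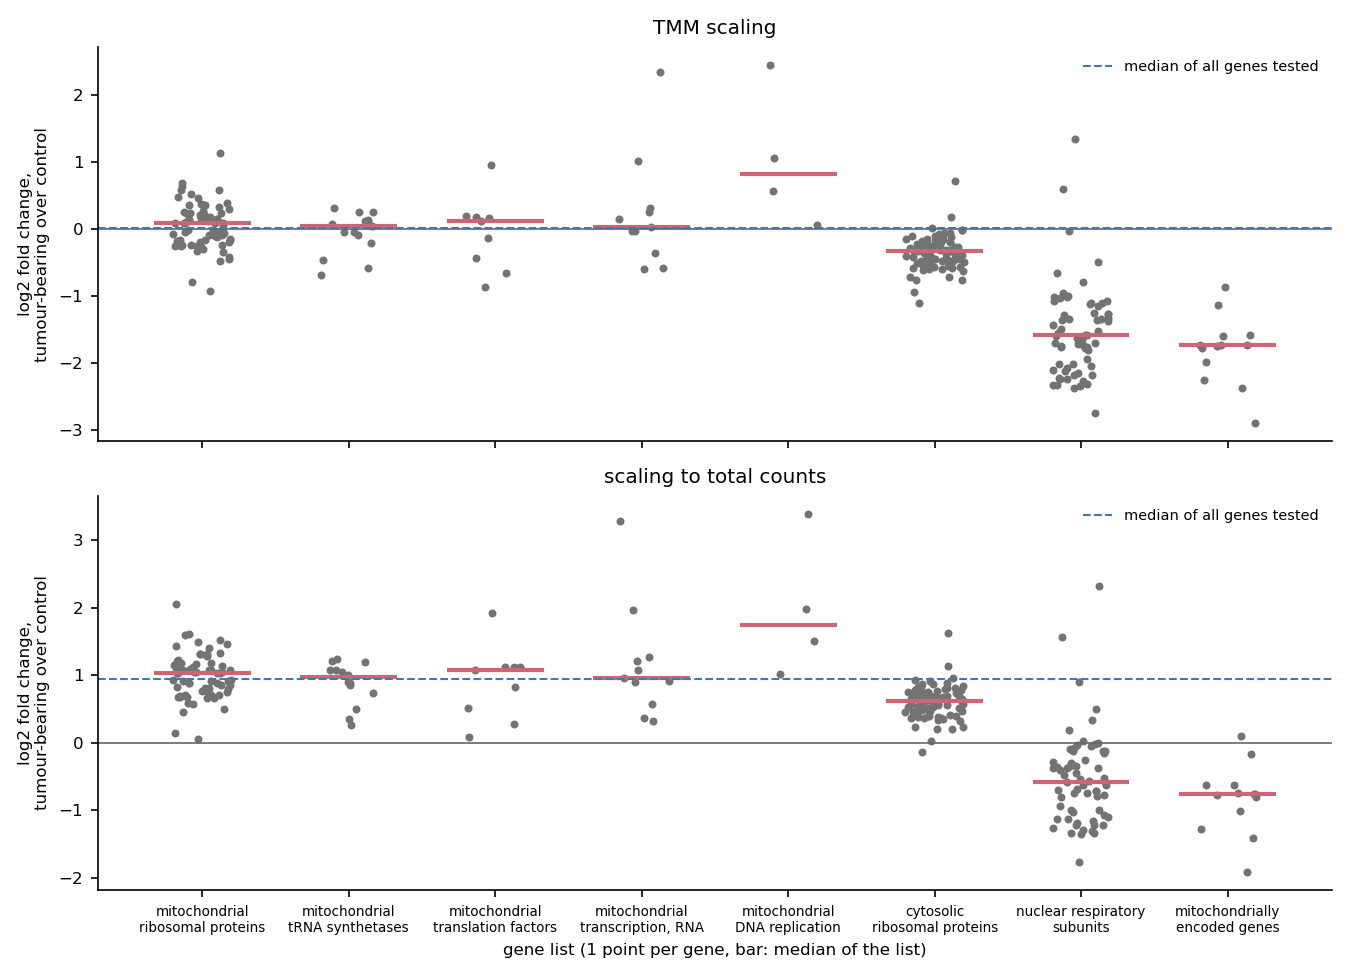
Log2 fold change of tumour-bearing over control (y axis) of each gene in the family and in 7 other lists (x axis), with libraries scaled by TMM (top) and to total counts (bottom), a bar at each list's median and a dashed line at the median of all genes tested. The members sit at that line under both scalings (0.085 against 0.0067, and 1.04 against 0.94), and the 2 respiratory lists sit below it. The median of the cytosolic ribosomal proteins changes sign with the scaling (-0.34 and 0.62) but lies below the line under both.

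Ratios within each library need no scaling, but they use the same counts as the fold changes above and add no separate support. The summed counts of the members over those of the nuclear-encoded respiratory subunits were 0.0727, 0.0556 and 0.130 in controls and 0.269, 0.266 and 0.229 in tumour-bearing samples. All 3 tumour-bearing values were above the controls, and the mean was 2.96 times that of the controls. Over the mitochondrially encoded genes the ratio was 0.0162, 0.0196 and 0.0278 in controls and 0.0673, 0.0559 and 0.0695 in tumour-bearing samples, a mean 3.03 times higher, again without overlap. The muscle markers fell together with these denominators, to sums of 1305200 to 1772000 normalized counts in tumour-bearing samples from 3731600 to 14280000 in controls, and their part in the ratios was not tested.

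Cytosolic ribosomal proteins, the counterparts outside the mitochondrion, were compared in the same way. Of 83 tested, none rose and 15 fell (median -0.34) with TMM, where 23.8% of all genes tested were higher and 23% lower. RpLP2 was at -1.11 ± 0.24 (adjusted p = 0.013) and RpL41 at -0.95 ± 0.23 (adjusted p = 0.019). Scaled to total counts, 66 of the 83 were higher and none lower (median 0.62), where 61.5% of all genes tested were higher and 6.9% lower. Under both scalings the list median lay below that of all genes tested, which was 0.0067 with TMM and 0.94 with total counts. The RpLP2 call was lost without tumour-bearing replicate 2 (adjusted p = 0.060), and that of RpL41 without control replicate 1 or tumour-bearing replicate 1 or 2 (0.054 to 0.076). The ratio of the members to the cytosolic ribosomal proteins was 0.00942, 0.00894 and 0.00954 in controls and 0.0112, 0.0118 and 0.0113 in tumour-bearing samples. These groups did not overlap, with a mean 1.23 times higher in tumour-bearing samples.

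**Figure D5:**
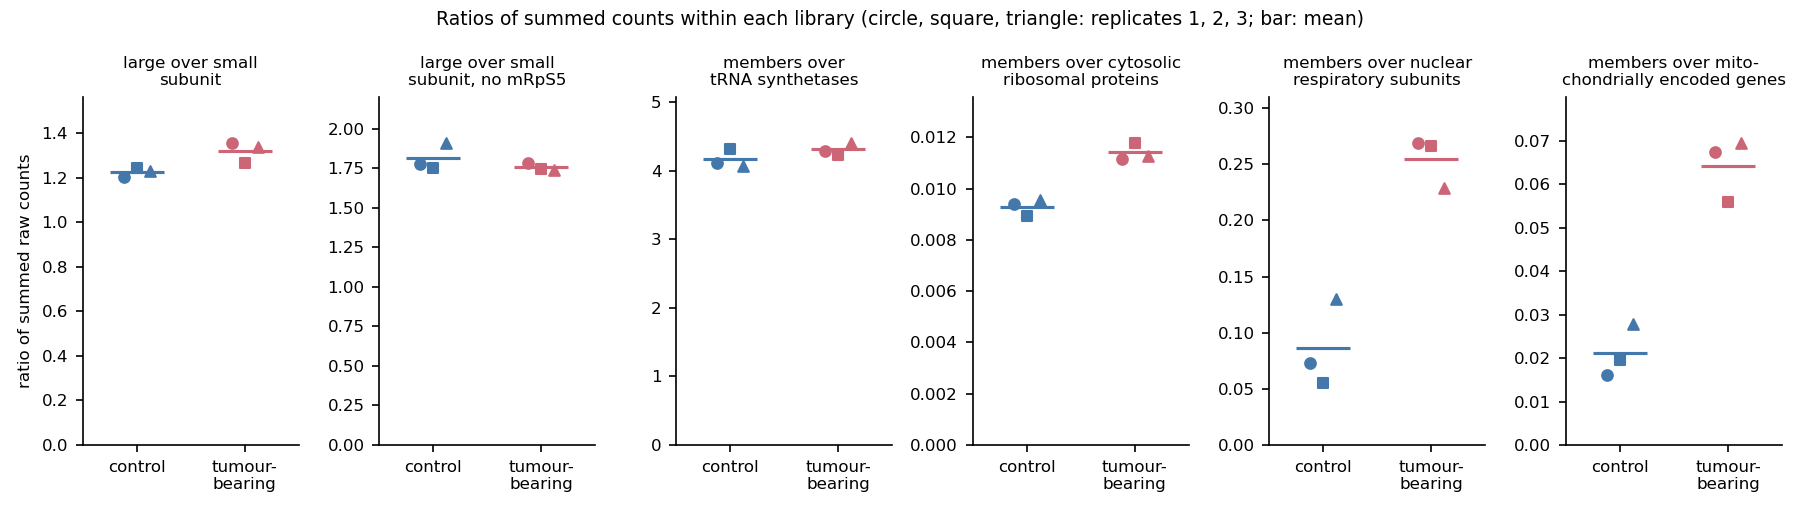
Ratio of summed raw counts (y axis, from 0) in each control and tumour-bearing library for 6 pairs of gene groups, with a symbol for each replicate and a bar at the mean. The large over small subunit ratio differs little and overlaps once mRpS5 is left out. The ratio to the tRNA synthetases lies between 4.07 and 4.41 in all libraries. The ratios to the 2 respiratory groups are about 3 times higher in tumour-bearing samples.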

How the data were processed

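RNA-seq of 6 larval body wall samples was analysed, 3 control and 3 tumour-bearing, grouped by the labels. In their processing notes the submitters list Bowtie, TopHat and HTSeq beside FastQC, bcl2fastq and DESeq2, with BDGP6 as build. Versions and settings are not given in the sources used here. The authors deposited raw counts per gene, used for every value. They also deposited a normalized signal, each column being the count divided by 1 constant per sample, and their own comparison as a fold change (a ratio), a log2 fold change and p-values, none of which was used. RNA extraction is given as Trizol in the labels and as a QIAGEN kit in the series text. No column of per-sample values was left unmapped.

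Counts were tested with edgeR 4.0.16 in R 4.3.3 (filterByExpr, TMM, robust quasi-likelihood fit, Benjamini-Hochberg adjustment over 10074 genes, threshold 0.05), which was tested on simulated data. That simulation changed few genes and set no shift in composition, so it does not bear on the choice of scaling. Every adjusted p comes from the edgeR test unless named otherwise. Standard errors are of the log2 fold change. Normalized counts are counts divided by TMM-scaled library sizes relative to their mean. Coordinates and exon lengths came from the Ensembl annotation of BDGP6, which placed all 72 members. Of these, 43 share exon bases with another gene, over 10% of their length in 10, and the kit does not mark strand. No sequence was read and promoter motifs were not analysed here.

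The members and lists were chosen with earlier results of these data known. Named genes were the largest changes past the test per direction (up to 5 members, and 2 genes of each other list), the 3 most abundant members of each subunit per kb, and the stalk, exit site and head members named in the text. mRpL13, mRpL46, the S18 relatives, mtSSB, overlap partners, tko, bonsai and marker genes were added after their values were seen. Alternatives were other scalings (RLE, upper quartile, total counts), DESeq2 1.42.0, other filters, removal of the 20 most abundant genes or of each sample in turn, a replicate block and a threshold of 0.01.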

Additional observations from a re-analysis of the deposited data

How the results depend on the processing

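The number of members past the test changed with the settings, and so did the share of all genes past it, which is given in brackets for each refit. Members higher and lower were 7 and 4 with TMM (46.8% of all genes called), and 7 and 6 with RLE factors (47.2%). Upper-quartile factors gave 14 and 2 (47.2%), total counts 69 and 0 (68.4%) and DESeq2 11 and 6 (54.2%). A minimum of 10 counts in every sample gave 11 and 4 (48.2%), no filter 7 and 3 (38.9%), and leaving out the 20 most abundant genes 7 and 4 (46.8%). Scaling to the family gave 4 and 5 (40.3%). A threshold of 0.01 left 2 and 0. The share of all genes at that threshold is not given here, so this drop cannot be read as particular to the family. Leaving out 1 sample at a time gave 2 to 7 higher and 1 to 7 lower. Without control replicate 1 they were 3 and 2 (32.4%), without control replicate 2 they were 7 and 2 (42.8%), and without control replicate 3 they were 4 and 7 (49.9%). Without tumour-bearing replicates 1, 2 and 3 they were 2 and 1 (33.6%), 4 and 2 (29.8%), and 3 and 1 (34.2%). No member row lists several genes, so leaving such rows out changed nothing.

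Total counts moved the median of the large subunit from 0.029 to 0.97 and that of the small subunit from 0.091 to 1.04. Upper-quartile factors gave 0.15 and 0.21. Leaving out 1 sample gave -0.046 to 0.12 for the large and -0.0074 (without control replicate 3) to 0.25 (without control replicate 2) for the small subunit. The difference of the medians was -0.062 (-0.067 with total counts), -0.13 to -0.028 when a sample was left out, and -0.15 with mRpS18A and mRpS30 in the large subunit. The large over small ratio, 1.08 times higher in tumour-bearing samples, became 0.969 times without mRpS5. Total counts also turned the sign of mRpL10 (0.50), mRpL20 (0.15), mRpL42 (0.059), mRpS5 (0.46), mRpL23 (0.75), mRpL28 (0.92), mRpL9 (0.67), mRpS9 (0.68), PheRS-m (Aats-phe, 0.26), mIF3 (CG13163, 0.078), mRRF1 (CG4447, 0.28), CysRS-m (CG8257, 0.36), RpL41 (0.024), mTTF (0.37) and mtTFB2 (0.32). The cause is the scaling itself, which raised the median of all genes to 0.94.

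Replicate numbers recur in both groups but name no shared culture. Deviations of same-numbered samples correlated at -0.055, 0.067 and 0.11, so the fit with the replicate number as a block is an alternative. With the replicate block 3 members were higher and 2 lower (mRpS18C, mRpL39, mRpS14, mRpL20 and mRpS5), against 7 and 4, and not every sample correlated best with its own number. Over all genes, the calls went from 4713 of 10074 to 35.5% of them.

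Each member had at least 80 counts in every sample. The effect of depth and of the number of samples on the calls was not tested. Overlapping genes on either strand can share reads.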
